A study of Mus musculus with 7 samples.

Results

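Transcripts that belong to hepatocytes, the main cells of the liver, were followed in 7 bead arrays of mouse hypothalamus. The set held 39 genes, which had been selected on the detection and signal of liver genes in these same arrays, so their levels in single arrays are described without a test; the limma comparison of the diets is given at the end and shares the arrays of that choice. Probes on the array were named for 37 of the 39 genes, out of 16593 named genes on the array, and 34 of the 37 were detected in at least 1 array. Apob and Gc had no named probe. The genes Apoa1, Ambp and Ttr were given as markers of the set.

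Hepatocytes make most of the proteins that circulate in blood plasma, among them apolipoproteins, carrier proteins, clotting factors and protease inhibitors. They also hold enzymes that break down amino acids, turn ammonia into urea and oxidise steroids and drugs. Most of these genes are read at high level in liver and at low level or not at all in neurons and glia, with exceptions: Ttr is the leading transcript of the choroid plexus, the tissue that secretes cerebrospinal fluid, and Vtn is also made by pericytes, the cells wrapped around brain capillaries. Ass1, Cyp7b1 and Cyp27a1 are also known from brain cells.

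The DHA group held 5 arrays, replicates 1 to 5, from male C57BL/6 mice with a knockout of Bgn, aged 13 weeks. Bgn encodes biglycan, a proteoglycan of the extracellular matrix. These mice had eaten for about 6 weeks a chow that carried 0.5% flaxseed oil and 1.2% oil from docosahexaenoic acid (DHA) capsules. The untreated group held 2 arrays, replicates 1 and 3, from Bgn knockout males of the same strain and age with no oil in the chow recorded. No wild-type group and no group on another oil is among the samples used here, so DHA and added oil cannot be told apart. The series text states that liver was taken from the same mice as the hypothalamus, and that 1 of 3 untreated samples was left out as an outlier. No label names the animal, so the p-values below measure the spread between these samples, and the small number of arrays limits all precision.

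Each array gave a signal intensity per probe and a detection p-value, which sets the probe against the negative controls of its array; a probe is called detected where that p was under 0.05. Between 14251 and 14534 of 25697 probes were detected in the DHA arrays, against 13970 and 13873 in the untreated arrays. The Bgn probe was detected in all 7 arrays, with signals of 405.8 to 494 in the DHA arrays and of 504 and 443 in the untreated arrays. No source used here says if the probe sits inside the deletion, so it checks no label. Of 15 probed hypothalamus marker genes, 12 were detected in at least 1 array. The markers of the labelled tissue summed to 86133 to 99115 units of signal above background in the DHA arrays and to 84940.1 and 94384 in the untreated arrays. Signal above background is the deposited signal minus the median signal of probes with a detection p between 0.4 and 0.6 in the same array.

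The regulatory sequence in front of 4 of the genes is shown because they are an apolipoprotein, a carrier, a clotting factor and a protease inhibitor that moved together over the 7 arrays. Each is the 250 bases before the gene start on the gene's strand, 5′ to 3′, from RefSeq on GRCm38.p6. Capitals mark matches, on either strand, to letters bound by liver transcription factors: GTTAATNAT for HNF1, TTGCNNAA for C/EBP, TGTTTGC for FOXA and AGGTCA for nuclear receptors. The Apoa1 window lies at chr9:46228380-46228629 on the plus strand, the Ambp window at chr4:63154173-63154422 on the minus strand, the Fga window at chr3:83025903-83026152 on the plus strand and the Serpina1e window at chr12:103956898-103957147 on the minus strand.
Apoa1: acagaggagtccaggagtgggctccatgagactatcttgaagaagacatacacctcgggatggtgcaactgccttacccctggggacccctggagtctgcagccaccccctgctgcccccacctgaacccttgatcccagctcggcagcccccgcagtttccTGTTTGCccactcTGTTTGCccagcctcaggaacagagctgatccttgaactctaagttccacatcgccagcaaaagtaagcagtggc
Ambp: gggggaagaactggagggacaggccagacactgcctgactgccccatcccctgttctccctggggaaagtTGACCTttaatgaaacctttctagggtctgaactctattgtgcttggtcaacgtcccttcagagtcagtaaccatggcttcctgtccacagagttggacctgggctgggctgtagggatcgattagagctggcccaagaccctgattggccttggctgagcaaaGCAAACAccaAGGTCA
Fga: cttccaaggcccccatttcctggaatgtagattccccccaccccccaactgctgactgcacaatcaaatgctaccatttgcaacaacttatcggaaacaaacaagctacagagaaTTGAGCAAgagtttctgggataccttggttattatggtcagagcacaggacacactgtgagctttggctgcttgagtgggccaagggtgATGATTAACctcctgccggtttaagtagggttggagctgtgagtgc
Serpina1e: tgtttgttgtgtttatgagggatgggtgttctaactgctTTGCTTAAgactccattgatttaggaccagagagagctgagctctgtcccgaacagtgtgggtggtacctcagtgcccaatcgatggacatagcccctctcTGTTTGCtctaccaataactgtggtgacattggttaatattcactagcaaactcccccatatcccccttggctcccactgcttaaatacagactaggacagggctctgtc

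The Apoa1 window held the FOXA letters at 2 places, and the Ambp window held them once with the nuclear receptor letters at 2 places. The Fga window held the HNF1 and the C/EBP letters, and the Serpina1e window the C/EBP and the FOXA letters. Windows of 300 bases, which run 50 bases past the start, were at hand for 30 of the 39 genes. The HNF1 letters occurred for 3 of these 30 genes and in 0.8% of 32851 mouse windows. A gene counts where any of its windows matched, so counts of genes and shares of windows are unlike units. The C/EBP letters occurred in 10 of the 30 and in 10.8% of all windows, the FOXA letters in 9 and 5.07%, and the nuclear receptor letters in 12 and 16.26%. The FOXA and C/EBP letters can share bases. A match describes the letters only and shows no bound factor.

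The hepatocyte transcripts were brightest in DHA replicate 1 and dimmest in DHA replicate 3. Detected genes of the set numbered 32, 28, 13, 30 and 23 of 37 in DHA replicates 1 to 5, against 27 and 22 in untreated replicates 1 and 3. The hepatocyte level, the mean normalized log2 signal of the detected genes other than Ttr, Vtn, Ass1, Cyp7b1 and Cyp27a1 (29 genes), was 8.35, 7.11, 5.21, 7.48 and 5.96 in DHA replicates 1 to 5, against 6.28 and 5.76 in untreated replicates 1 and 3. Both untreated arrays lay inside the range of the DHA arrays. The highest array exceeded the lowest by 3.14 on the log2 scale, but most genes were undetected in the lowest, so this size depends on how background is handled: it was 1.68 with the authors' deposited values and 1.69 with no background correction. In bulk tissue, more cells of a type and more RNA per cell cannot be told apart.

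**Figure D1:**
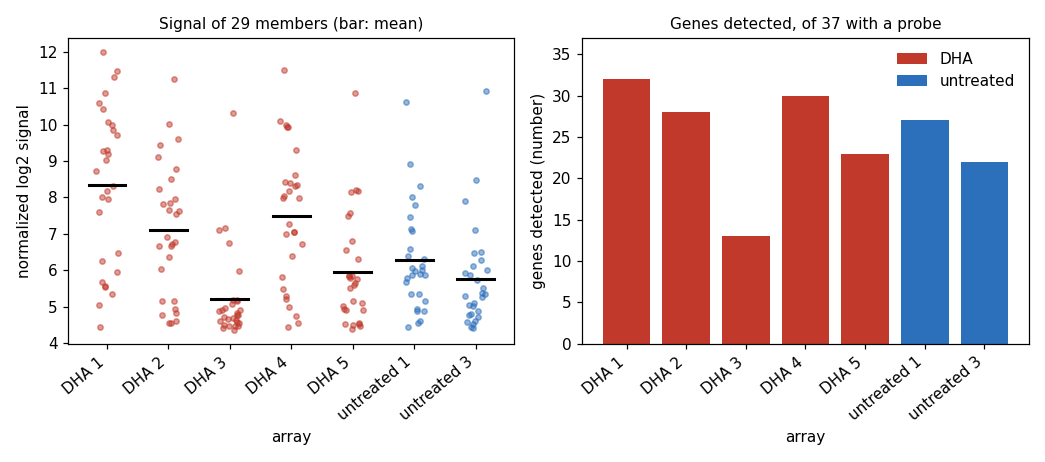
Left, normalized log2 signal of 29 hepatocyte genes in each of the 5 DHA arrays and the 2 untreated arrays, with a point per gene and a bar at the mean, which is the hepatocyte level; right, number of the 37 probed genes detected per array. DHA replicate 1 stands highest at 8.35 and DHA replicate 3 lowest at 5.21, and the untreated arrays at 6.28 and 5.76 lie between them.

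Most detected genes followed this level. DHA replicate 1 held the highest log2 signal for 29 of the 34 detected genes, and DHA replicate 3 the lowest for 20. Each gene was set against the level of the others, leaving itself out, by Pearson's r over the 7 arrays. The r had a median of 0.964 over the 34 genes and was at least 0.5 for 28 of them, or 82.4%. Among all 16575 probes detected in at least 1 array the median r was -0.03, and 10.8% reached 0.5. The points of each r are the same 7 arrays that chose the genes, so it describes the set and supports nothing further.

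**Figure D2:**
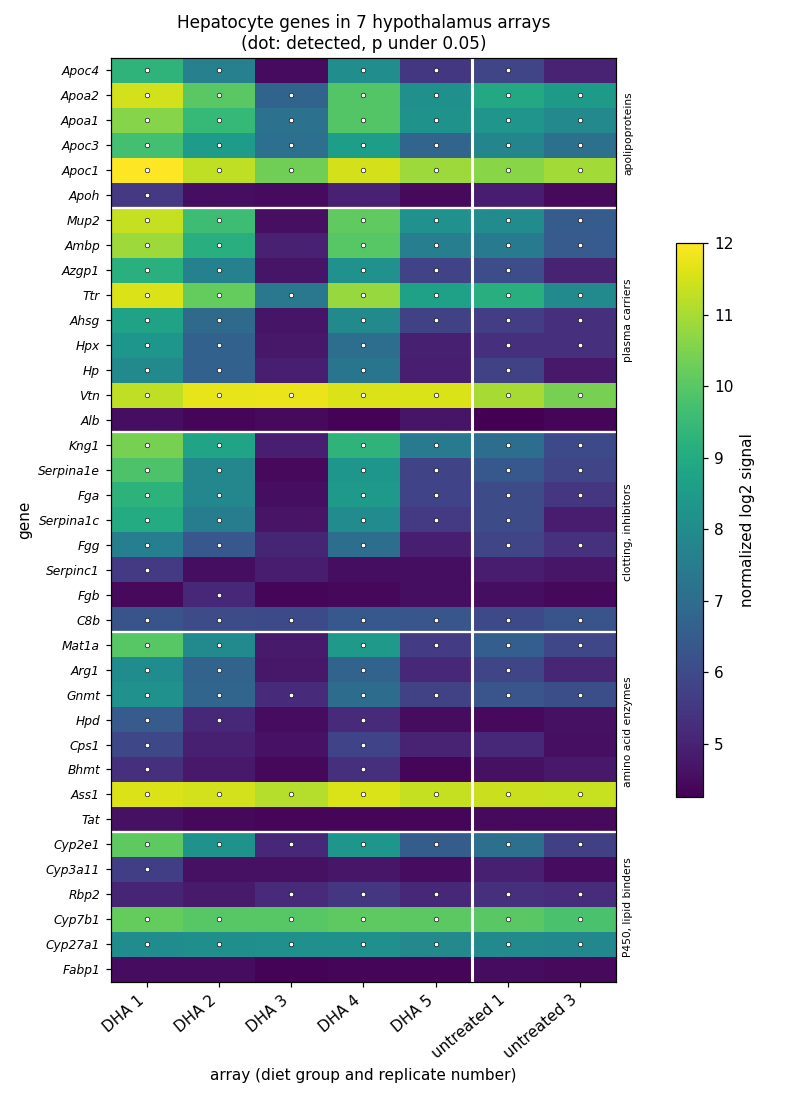
Normalized log2 signal of the 37 probed hepatocyte genes (rows) in the 7 arrays (columns), grouped by role, with DHA arrays left of untreated arrays; lighter colour is higher signal and a dot marks detection. DHA replicate 1 is highest for 29 of the 34 detected genes, and DHA replicate 3 holds 13 dots, the fewest.

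With the arrays put in order of the level, most genes were detected from some array upward. Detected in all 7 arrays were 12 genes, namely Apoa1, Apoa2, Apoc1, Apoc3, Cyp2e1, Gnmt, Ass1, Cyp7b1, C8b, Cyp27a1, Ttr and Vtn. Mup2, Ambp, Kng1, Mat1a, Serpina1e, Fga and Ahsg were missed in the lowest array alone. Apoc4, Serpina1c and Azgp1 were detected in the highest 5 arrays. Hp and Arg1 were detected in the highest 4, Hpd in the highest 3, Bhmt and Cps1 in the highest 2, and Apoh, Serpinc1 and Cyp3a11 in DHA replicate 1 alone. Fgg and Hpx were detected in the highest 4 arrays and also in untreated replicate 3, below an array that missed them. Fgb and Rbp2 were not detected in the highest array. Over all genes and arrays, 175 of 259 pairs were detected.

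Alb, which encodes serum albumin, Tat, a tyrosine-degrading enzyme, and Fabp1, the liver fatty acid binding protein, were detected in none of the 7 arrays. The Alb signal was 153, 134, 140.3, 133 and 149 in DHA replicates 1 to 5, against 117 and 137 in untreated replicates 1 and 3. These lay around the background of the arrays, which was 143 to 152 in the DHA arrays and 139 and 144 in the untreated arrays. Each of the 3 genes was measured by 1 probe, and a signal at background gives only a bound on the transcript, if the probe reads it. Probes of 1 gene can differ: a Kng1 probe was detected in 0 arrays, while the brightest Kng1 probe was detected in 6. The dimmer probe of Serpinc1 was also detected in 0 arrays and that of Azgp1 in 1, against 1 and 5 for the brighter probes. Whether the probes of Alb, Tat and Fabp1 read their transcripts was not tested.

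Apolipoproteins, the protein part of plasma lipoproteins, were detected for 6 of 6 probed genes, 4 of them in all arrays, and 6 of 6 followed the level with an r of at least 0.5. Apoa1, the main protein of high-density lipoprotein, had a signal of 1869.6, 823, 277, 1170.2 and 413 in DHA replicates 1 to 5, against 409 and 352 in untreated replicates 1 and 3. Apoa2, the next protein of that particle, had 3286, 1164, 239.9, 1177 and 402 in the DHA arrays, against 570.0 and 459.7 in the untreated arrays. Both genes were highest in DHA replicate 1 and lowest in DHA replicate 3, and the diets overlapped. Apoc4, a minor apolipoprotein, had 857, 331, 141, 411 and 174 in the DHA arrays, against 179 and 159.7 in the untreated arrays. It was not detected in DHA replicate 3 or untreated replicate 3.

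Apoc1, an apolipoprotein also known from glia, was bright in every array and highest in DHA replicate 1: it had 4679, 2579, 1401, 3233 and 1930.4 in DHA replicates 1 to 5, against 1585 and 1975 in untreated replicates 1 and 3. Its signal above background in DHA replicate 1 was 3.60 times that in DHA replicate 3, while Apoa2 differed 32.7 times and Apoa1 12.9 times between the same arrays. Apoc3, an inhibitor of lipoprotein lipase, ranged from 239 to 1081 in the DHA arrays and was 327 and 257 in the untreated arrays. Apoh, a phospholipid-binding plasma protein, had 189.6, 146, 141, 163 and 139 in the DHA arrays, against 150.3 and 139 in the untreated arrays, and was detected in DHA replicate 1 alone.

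Plasma carriers were detected for 8 of 9 probed genes, and 7 followed. Mup2 is a major urinary protein, which carries pheromones into urine. Its signal was 2978, 909, 146, 1306 and 412 in DHA replicates 1 to 5, against 356 and 214 in untreated replicates 1 and 3. It was highest in DHA replicate 1 and undetected in DHA replicate 3, and the diets overlapped. Mup genes are nearly identical copies, so a Mup2 probe may read its relatives, and the same holds for the Serpina1 genes. Ambp is the precursor of alpha-1-microglobulin and bikunin. It had 2223, 686, 159.8, 1219.6 and 313 in the DHA arrays, against 284 and 212 in the untreated arrays. Ambp was undetected in DHA replicate 3 as well, and the untreated values fell within the DHA range.

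Other carriers that followed the level were Ahsg, a calcium-binding plasma glycoprotein, Hpx, which binds haem, Hp, which binds haemoglobin, and Azgp1, a lipid-mobilising protein. Their highest signals, all in DHA replicate 1, were 611 for Ahsg, 497 for Hpx, 420.4 for Hp and 795 for Azgp1. All 4 were undetected in DHA replicate 3. Hp had 3 probes that did not act alike: the brightest had an r of 0.971, and the others had 0.487 and 0.862 with signals of 148 to 185 over the 7 arrays.

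Clotting factors, protease inhibitors and complement genes numbered 8, of which 8 were detected and 5 followed. Kng1, the kininogen from which bradykinin is cut, had 1684, 573, 158, 807 and 304 in DHA replicates 1 to 5, against 246 and 189 in untreated replicates 1 and 3. Serpina1e, an alpha-1-antitrypsin gene, had 1183, 363, 139.6, 468 and 185 in the DHA arrays, against 199 and 183 in the untreated arrays. Both were highest in DHA replicate 1 and were not detected in DHA replicate 3. Serpina1c ranged from 149 to 726 in the DHA arrays and was 186 and 156 in the untreated arrays.

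The probes for the 3 chains of fibrinogen, the clot-forming protein, did not act alike. The alpha chain Fga had 838, 361, 144, 489 and 185 in DHA replicates 1 to 5, against 184 and 172 in untreated replicates 1 and 3. The gamma chain Fgg had 357, 215, 163, 269 and 156 in the DHA arrays, against 178 and 169 in the untreated arrays. The beta chain Fgb had 147, 166, 133, 141 and 143 in the DHA arrays, against 139 and 138 in the untreated arrays. Fga and Fgg followed the level with r of 0.992 and 0.958. Fgb, read by 1 probe, was detected in DHA replicate 2 alone, at a detection p of 0.0476, and had an r of 0.22. Its other signals lay at background, so a difference between the transcripts of the chains is not shown.

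Enzymes of amino acid metabolism were detected for 7 of 8 genes, and those 7 followed. Mat1a, which makes S-adenosylmethionine in liver, had 1287, 381, 155, 496 and 178 in DHA replicates 1 to 5, against 211 and 185 in untreated replicates 1 and 3. Arg1, the last enzyme of the urea cycle, had 434, 238, 153, 241 and 162 in the DHA arrays, against 178 and 161 in the untreated arrays. Both were high in DHA replicate 1 and undetected in DHA replicate 3. Gnmt, a glycine methyltransferase, was detected in all arrays by the brighter of its 2 probes and in 0 by the other. The brighter probe had signals of 166 to 464 in the DHA arrays and of 195 and 194 in the untreated arrays.

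Genes near the detection limit marked the top of the range. Cps1, the first enzyme of the urea cycle, had 207, 159.9, 149, 191 and 159 in DHA replicates 1 to 5, against 157 and 146 in untreated replicates 1 and 3. Hpd, an enzyme of tyrosine breakdown, had 239.7, 166, 142, 171 and 141 in the DHA arrays, against 134 and 147 in the untreated arrays. Bhmt, which remethylates homocysteine, had 182, 155, 137, 173 and 134 in the DHA arrays, against 141 and 153 in the untreated arrays. None of these 3 was detected in an untreated array. Ass1, a urea cycle enzyme also known from brain, was bright in every array, with 2350.2 to 3585 in the DHA arrays and 2638 and 2613 in the untreated arrays.

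Cytochromes and lipid binders were detected for 5 of 6 genes, and 3 followed. Cyp2e1, the ethanol-oxidising cytochrome P450, had 1356, 433, 165, 474 and 221 in DHA replicates 1 to 5, against 252 and 179 in untreated replicates 1 and 3. It was highest in DHA replicate 1 and lowest in DHA replicate 3, where it was still detected. Cyp3a11, a drug-oxidising cytochrome, had 196, 148, 147, 155 and 142 in the DHA arrays, against 152 and 143 in the untreated arrays, and was detected in DHA replicate 1 alone. Cyp7b1, an oxysterol hydroxylase that brain also expresses, had 1429, 1158, 1140.0, 1298 and 1152 in the DHA arrays, against 1081 and 959 in the untreated arrays. Its normalized log2 signals overlapped between the diets, and its r of 0.69 was 0.27 without the 2 arrays farthest from the median level.

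The genes that did not follow the others were Fgb, C8b, Cyp27a1, Serpinc1, Vtn and Rbp2, with an r under 0.5. C8b, a complement component, had 225, 197, 195, 218 and 207 in DHA replicates 1 to 5, against 182 and 201 in untreated replicates 1 and 3. Cyp27a1, a mitochondrial sterol hydroxylase, had 434, 409, 417, 430.1 and 359.7 in the DHA arrays, against 347 and 349.7 in the untreated arrays. Both were detected in all arrays, and their normalized log2 signals overlapped between the diets, over ranges of 0.41 for C8b and 0.26 for Cyp27a1. These Cyp27a1 values are of the brightest of 3 probes. The other probes ranged over 0.49 and 0.85, and their deposited signals were higher in every DHA array than in either untreated array. Their log2 differences were 0.33 (SE 0.12) and 0.43 (SE 0.18), with limma adjusted p of 0.437 and 0.483. Their r were 0.34 and 0.40.

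Serpinc1, which encodes antithrombin, had 191, 145, 157, 147 and 143 in DHA replicates 1 to 5, against 150.3 and 151 in untreated replicates 1 and 3. Rbp2, a retinol binding protein known mainly from intestine, had 172, 156, 166, 178 and 163 in the DHA arrays, against 162 and 166 in the untreated arrays. Both stayed close to background: Serpinc1 was detected in DHA replicate 1 alone and Rbp2 in 5 arrays. Without the 2 arrays farthest from the median level, 8 genes had an r under 0.5. Of the first 6, Fgb no longer did, with an r of 0.93, and Apoh, Cyp7b1 and Cyp3a11 joined the others.

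**Figure D3:**
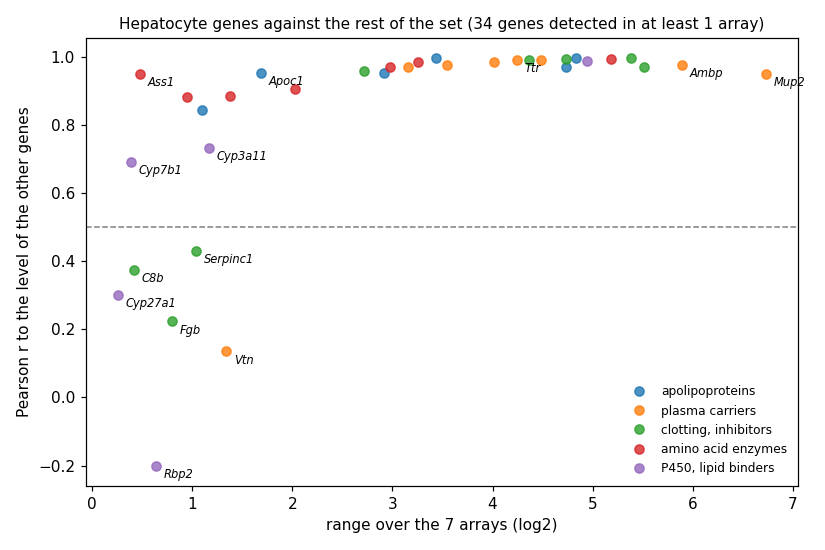
Pearson's r of each of the 34 detected hepatocyte genes to the level of the others over 7 arrays (vertical), against the gene's range of normalized log2 signal (horizontal), coloured by role, with a dashed line at 0.5. The genes with a wide range sit near an r of 1, and the 6 genes under 0.5 have a range of 1.34 or less; where a gene was undetected in its lowest array, the range is set against background.

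Vtn encodes vitronectin, a plasma and matrix protein. It had 2859, 3437, 3529.7, 3408 and 3039 in DHA replicates 1 to 5, against 2005 and 1431 in untreated replicates 1 and 3. All 5 DHA arrays exceeded both untreated arrays, and the highest Vtn signal was in DHA replicate 3, the array with the lowest hepatocyte level. Its log2 signal averaged 11.58 ± 0.20 in DHA arrays (SD, n = 5) and 10.71 ± 0.39 in untreated arrays (SD, n = 2). DHA minus untreated came to 0.87 (SE 0.18), at an adjusted p of 0.215 in limma over all probes, and to 0.59 without untreated replicate 3.

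Markers of the meninges, the membranes around the brain, also summed to more in every DHA array than in either untreated array. The 16 meningeal genes summed to 22436 to 31356 units above background in the DHA arrays and to 13896 and 6819 in the untreated arrays, and 14 of the 16 were detected in at least 1 array. The 8 further genes of pericytes and endothelium summed to 4532 to 5467 units in the DHA arrays and to 4184 and 3788 in the untreated arrays, and all 8 were detected in every array. Most of each sum came from Slc2a1 and Flt1, so it says little of the dimmer genes. Singly, the log2 difference, DHA minus untreated, was -0.30 for Kcnj8, -0.01 for Flt1 and 0.12 to 0.41 for the others. None had a limma adjusted p under 0.05. The part of either tissue in the Vtn values was not tested.

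Ttr, the thyroxine and retinol carrier of plasma and cerebrospinal fluid, had 3539, 1285, 297, 2054 and 531 in DHA replicates 1 to 5, against 635 and 358 in untreated replicates 1 and 3. DHA replicate 1 was highest and DHA replicate 3 lowest, with both untreated arrays inside the DHA range. Ttr followed the hepatocyte level with an r of 0.991 over the 7 arrays. The log2 signal averaged 9.72 ± 1.70 in DHA arrays (SD, n = 5) and 8.54 ± 0.83 in untreated arrays (SD, n = 2).

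Most other choroid plexus markers did not follow the level singly. Of 11 probed markers besides Ttr, 10 were detected in at least 1 array and 2, Aqp1 and Sostdc1, reached an r of 0.5. They summed to 1692 to 2002 units above background in the DHA arrays and to 1987 and 1368 in the untreated arrays. The mean of their normalized log2 signals, in which genes at background count as much as bright ones, had an r of 0.63 to the level over the 7 arrays. Clic6, a chloride channel protein of choroid plexus, had 1629.7, 1397, 1409, 1702 and 1488 in DHA replicates 1 to 5, against 1817 and 1137 in untreated replicates 1 and 3. This 1 gene gave most of the summed units in every array. Kl, Clic6, Otx2, Sostdc1 and Calml4 were detected in all 7 arrays, Folr1, Kcne2, Aqp1, Cldn2 and Tmem72 in 1 array each, and F5 in none. The part of choroid plexus in the Ttr values was not tested.

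**Figure D4:**
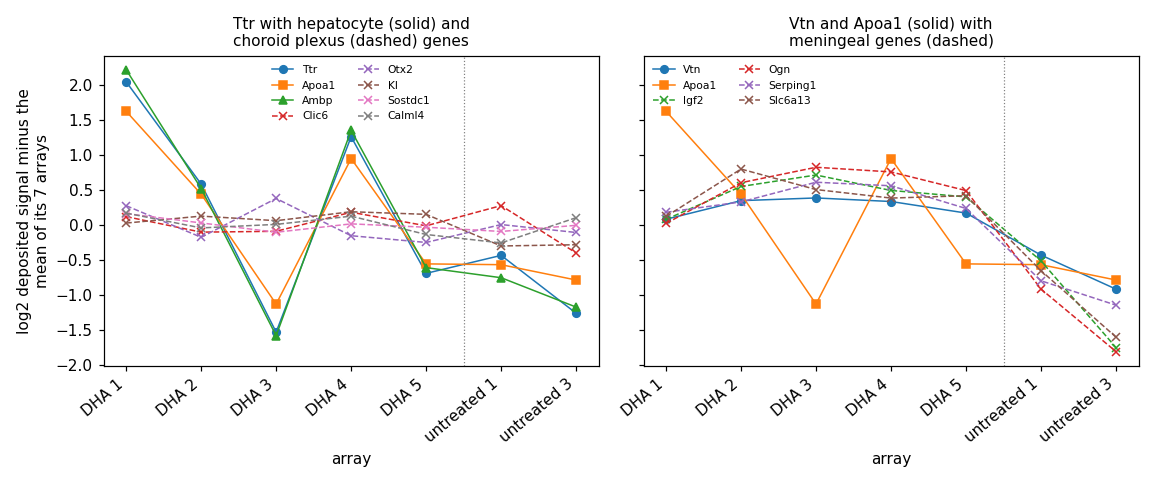
Log2 of the deposited signal minus the gene's mean over the 7 arrays, for Ttr with hepatocyte and choroid plexus genes (left) and for Vtn and Apoa1 with meningeal genes (right); lines only join the values of 1 gene. Ttr swings with Apoa1 and Ambp, 3539 units in DHA replicate 1 and 297 in DHA replicate 3, while Vtn is at 2859 and 3529.7 in those arrays and lowest in the untreated arrays.

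Many hepatocyte genes outside the set also followed the level. Of 68 further hepatocyte genes, 59 had a probe, 42 were detected in at least 1 array and 31 of those reached an r of 0.5, with a median r of 0.834. They were detected 37, 31, 15, 38 and 23 times in DHA replicates 1 to 5, against 19 and 12 in untreated replicates 1 and 3. By that count DHA replicate 4 stood highest and untreated replicate 3 lowest. Hamp, the iron hormone hepcidin, had 765, 258, 140.3, 307 and 171 in the DHA arrays, against 152 and 147 in the untreated arrays. Itih4, a plasma inhibitor chain, had 623, 263, 153, 338 and 206 in the DHA arrays, against 187 and 157 in the untreated arrays. Both were highest in DHA replicate 1, and the diets overlapped in both.

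Among further alpha-1-antitrypsin genes, Serpina1b and Serpina1d were detected in all 7 arrays and Serpina1a in 3. Serpina1b had 2553, 1097, 532, 1751 and 641 in DHA replicates 1 to 5, against 461 and 207 in untreated replicates 1 and 3. Serpina1d had 1843, 705, 459, 1298 and 488 in the DHA arrays, against 344 and 197 in the untreated arrays. In both genes every DHA array lay above the untreated arrays, DHA replicate 3 included. On normalized signal, 7.89% of all tested probes showed such a lack of overlap. It was not particular to these genes within the list. Serpind1 had 270 to 319 in the DHA arrays, against 189 and 175 in the untreated arrays, and C4b had 654 to 724, against 495 and 480. Their log2 differences were 1.40 and 0.44, with limma adjusted p of 0.117 and 0.215. Serpina1a had 291, 177, 142, 231 and 160.0 in the DHA arrays, against 147 and 143 in the untreated arrays, and was undetected in DHA replicate 3, as were Serpina1c and Serpina1e. The fitted log2 difference was 2.39 for Serpina1b and 2.30 for Serpina1d, and neither passed the test, with limma adjusted p of 0.371 and 0.351. Without untreated replicate 3 these differences were 1.31 and 1.43. Examples of the hepatocyte genes that did not follow were Trf and Lcat, with r of -0.26 and -0.57, both detected in all 7 arrays. Hnf4a, a liver transcription factor, had an r of 0.25. Its signals were close to background, at 155 to 191, and it was undetected in both untreated arrays. The source of these 3 transcripts was not tested.

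Outside the set, the named genes with the highest r to the level among 1655 probes with a range of at least 1 on the log2 scale were Acaa1b, Uroc1, Uox, Mup21, Gsta3, Cyp8b1, Mup6, Mettl7b, Mcm10 and Pon1, over 7 arrays. Their r lay between 0.987 and 0.992, and Uox and Cyp8b1 are also among the 68 further hepatocyte genes. Acaa1b, a peroxisomal thiolase, had 972, 427, 185, 445 and 221 in DHA replicates 1 to 5, against 232 and 218 in untreated replicates 1 and 3. Gsta3, a glutathione transferase, had 1146, 473, 222, 563 and 324 in the DHA arrays, against 305 and 254 in the untreated arrays. Mcm10, a DNA replication factor, had 226, 181, 160.3, 188 and 166 in the DHA arrays, against 165 and 166 in the untreated arrays.

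Relative amounts were compared with DHA replicate 1, the highest array, over the 25 genes of the level that followed it and were detected there. The median gene held 27.96% of its DHA replicate 1 signal above background in DHA replicate 2, 1.47% in DHA replicate 3, 43.1% in DHA replicate 4 and 6.49% in DHA replicate 5. In the untreated arrays it held 8.15% in replicate 1 and 3.60% in replicate 3. The middle 50% of genes spanned 33.3% to 53.9% in DHA replicate 4 and 23.9% to 32.5% in DHA replicate 2. Of the 25 genes, 6 were detected in DHA replicate 3, 16 in DHA replicate 5, and 20 and 15 in untreated replicates 1 and 3, so the medians of the low arrays include genes at background. This gene set was chosen after the values were seen. Over the genes detected in both arrays alone, which leaves out those that were lowest, DHA replicate 3 had 7.43%, and this set differs from array to array.

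**Figure D5:**
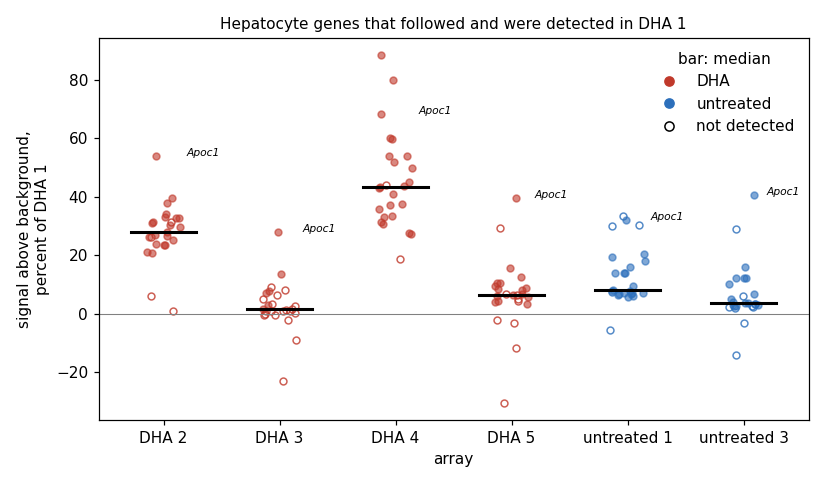
Signal above background as a percent of its value in DHA replicate 1, for the other 4 DHA arrays and the 2 untreated arrays, with a point for each of 25 hepatocyte genes (open where not detected) and a bar at the median. The median gene stood at 43.1% in DHA replicate 4, 27.96% in DHA replicate 2 and at 8.15% or less in the other arrays.

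Few genes of the cells that accompany hepatocytes in liver followed the level. Of 12 probed genes of liver endothelium, Kupffer cells, stellate cells and bile ducts, 8 were detected in at least 1 array and 2 reached an r of 0.5, with a median r of -0.01. The Kupffer cell genes Clec4f, Cd5l and Vsig4 were detected in no array and Marco in DHA replicate 5 alone. Reln and Sox9, which brain cells also express, were detected in all 7. Clec4g, of liver sinusoidal endothelium, had 199.8, 160.0, 156, 171 and 156 in DHA replicates 1 to 5, against 136 and 148 in untreated replicates 1 and 3. Stab2, a scavenger receptor of the same cells, had 201, 170.4, 162, 179 and 159 in the DHA arrays, against 156 and 177 in the untreated arrays. These were the 2 genes of the list with an r of 0.5 or more, at 0.83 and 0.65. Fcgr2b and Lyve1, also on the list, were detected in 7 and 4 arrays and had r of -0.67 and -0.32.

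Few genes of other organs took the order of the hepatocyte level. An r of 0.5 was reached by 0 of 5 detected intestinal genes, 0 of 3 kidney genes, 0 of 2 pancreas genes and 0 of 6 blood cell genes, and by 2 of 6 skeletal muscle genes. Blood cell genes summed to 11887 to 30844 units above background in the DHA arrays and to 25285 and 18969 in the untreated arrays, with the highest sum in DHA replicate 2 rather than DHA replicate 1. The source of the hepatocyte transcripts was not tested.

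The diet comparison found no hepatocyte gene past the threshold. Of the 30 genes tested, 0 had a limma adjusted p under 0.05, and across all 15284 probes 0 did (0.0%). At an unadjusted p under 0.05 the set held 1 gene, Vtn, or 1 of 30, against 1568 probes (10.3%). The groups did not overlap, with DHA higher, for 1 of the 30 genes, Vtn, against 7.89% of all probes, and with DHA lower for 0 of the 30, against 9.06%. These counts share the arrays that chose the genes, and nothing further is read from them.

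The fitted log2 difference, DHA minus untreated, was above 0 for 29 of the 30 tested genes, against 7176 of all 15284 probes. Its median was 0.92 over the tested genes and -0.01 over all probes. The genes were chosen on these same arrays and most moved together, so their directions are not separate results. Adjusted p ranged from 0.215 to 0.928 and the standard errors from 0.10 to 1.58. Apoa1 averaged 9.07 ± 1.38 log2 in DHA arrays (SD, n = 5) and 8.10 ± 0.28 in untreated arrays (SD, n = 2), a difference of 0.97 (SE 0.83) with a limma adjusted p of 0.719. Ambp averaged 8.50 ± 2.32 in DHA arrays and 6.97 ± 0.71 in untreated arrays, a difference of 1.53 (SE 1.40) with a limma adjusted p of 0.736. Ttr differed by 1.18 (SE 1.05) with a limma adjusted p of 0.725. Rbp2 was the exception in direction, at -0.16 (SE 0.16) with a limma adjusted p of 0.759. Without DHA replicate 1 the difference was 0.58 for Apoa1, 0.94 for Ambp and 0.72 for Ttr, and without untreated replicate 3 it was 0.59 for Ttr. Without DHA replicate 3 it was 2.42 for Ambp and 1.78 for Ttr.

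The spread among the DHA arrays was of the size of these differences. Within the DHA group, the median SD of log2 signal was 1.38 over the 30 genes and 0.173 over all probes. The genes were chosen on their signal in these same arrays, so nothing further is read from that contrast. The hepatocyte level averaged 6.82 ± 1.25 in the DHA arrays (SD, n = 5) and 6.02 ± 0.37 in the untreated arrays (SD, n = 2), a difference of 0.81. Without DHA replicate 1 the difference was 0.43, and without DHA replicate 3 it was 1.21. The tested genes Cps1, Bhmt and Hpd were detected in no untreated array and entered the test through DHA arrays alone. The DHA mean of Cps1 was at least 1.04-fold the untreated mean, a bound of 0.05 log2 against an SE of 0.37 (limma adjusted p 0.730). Cps1 was detected in only 2 of the 5 DHA arrays, so no increase is read from this bound. For Bhmt and Hpd no fold is given, as their bound was under 1. Of the 7 probed genes that were not tested, Alb, Tat and Fabp1 were detected in no array, and Apoh, Fgb, Serpinc1 and Cyp3a11 in 1.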

How the data were processed

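Total RNA of hypothalamus was labelled and hybridised to Illumina bead arrays, per the labels' protocols. Per the file headers, the authors' unnormalized table gives intensity per probe and array with a detection p-value; no background had been subtracted, as the lowest signals were 117 to 124. Its 2 columns that match no sample were not used. The authors' deposited normalized values are intensity values on a linear scale and served as an alternative; their column for DHA replicate 5 equals the unnormalized one (largest difference 0). Named in the submitters' processing notes are lumi, version 2.10.0, and R, version 2.15.0; the sources used here do not give the kind of normalization.

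Computed here, with R 4.3.3 and limma 3.58.1: normexp background correction from the detection p-values with an offset of 16, quantile normalization and log2 (differences in total RNA between arrays are removed, and the offset shrinks folds of dim probes). The platform annotation pairs 23978 of 25697 probes with 1 gene symbol, 1719 with none and 0 with several; 23962 matched RefSeq of GRCm38.p6 for current symbols. The two-sided limma test (lmFit, eBayes, Benjamini-Hochberg) took the 15284 probes with a detection p under 0.05 in 2 or more arrays. The script was tested on simulated data. The brightest probe stands for a gene. The hepatocyte level averages the detected genes outside Ttr, Vtn, Ass1, Cyp7b1 and Cyp27a1. "At least N-fold" is the brighter group's mean over the dim group's mean, where each dim array counts at its own signal or, if higher, its lowest detected probe.

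The hepatocyte genes, lists and measures were chosen with earlier results of these data known. Named by rule were Apoa1, Ambp and Ttr, the 2 widest-ranging genes of each role, genes detected in 1 to 3 arrays, genes that did not follow, the 10 genes outside the set with the highest r, and detected genes of the other hepatocyte list; examples were taken from those. Fga, Fgg, Apoc1, Apoc3, Alb, the carriers and Clec4g, Stab2 and Clic6 were added after their values were seen. Alternatives were the deposited values, no background correction, an offset of 50, a common median, other detection filters, an intensity trend, array weights, a block for replicate number and leaving out each array.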

Additional observations from a re-analysis of the deposited data

Results flagged for a closer look

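Within the 5 DHA arrays, Dixon's gap test at the critical value of 0.710 was run on 35 items, the 34 detected hepatocyte genes and their level, and marked 2. By chance, about 1 in 20 such groups is marked. Fgb stood apart in DHA replicate 2, with a log2 signal of 5.16 against 4.36 to 4.53 in the other DHA arrays and a gap of 0.786 of the range. Cyp3a11 stood apart in DHA replicate 1, with 5.68 against 4.52 to 4.73 and a gap of 0.815. Both genes were detected in those arrays alone, so their other values lie at background.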

How the results depend on the processing

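No hepatocyte gene passed the threshold under any of the 16 alternatives of the limma fit. Over all probes, 0 passed at first, against 12 with the authors' deposited values, 12 with no background correction, 1 with normexp at an offset of 50, 52 with an intensity trend and robust variances, and 0 to 3 with 1 array left out (3 without untreated replicate 3). The highest array exceeded the lowest in hepatocyte level by 3.14, by 1.68 with the deposited values, by 1.69 with no background correction and by 2.26 to 3.47 otherwise; the order of the 7 arrays was the same under all 7 alternatives, 1 of which, with no normalization, was chosen after seeing the data. The median difference of the tested genes was 0.92, and 0.48 to 1.30 under the alternatives: 0.48 without DHA replicate 1 and 0.58 without untreated replicate 3. With the strict detection filter it was 0.49, over fewer genes. For Vtn, leaving out untreated replicate 3 gave 0.59 with a limma adjusted p of 0.603, in a range of 0.0986 to 0.603 over the alternatives. Apoa1, Ambp, Ttr, Mup2, Vtn, Cyp7b1, Cyp27a1, Rbp2, Serpina1b and Serpina1d kept their direction wherever they were tested. Genes detected over all arrays fell to 157 pairs at a detection p under 0.01. Replicate numbers 1 and 3 occur in both diets, and deviations from the group means correlated by 0.0034 and 0.034 across probes. With 2 untreated arrays, their deviations mirror each other, so these values cannot settle whether arrays of the same number were paired. The fit with the replicate block gave a median of 0.93 and changed no call. The 2 untreated arrays limit every diet comparison, and signals near background limit Apoh, Fgb, Serpinc1, Cyp3a11, Bhmt, Cps1 and Hpd.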
